A study of Schizosaccharomyces pombe with 15 samples.

Results

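Of the 6998 genes listed in the deposited count tables, 4 phosphate-responsive genes of fission yeast (Schizosaccharomyces pombe) were examined, picked out by identifier with earlier results of these data known: pho1 (SPBP4G3.02), pho84 (SPBC8E4.01c), tgp1 (SPBC1271.09) and pho7 (SPBC27B12.11c). All 4 passed the filter on low counts. RNA of the wild-type strain JY450 was sequenced from 5 groups, each with 3 biological replicates. Plasma at atmospheric pressure, a partly ionised gas and a source of reactive oxygen and nitrogen, was given at time points of 10, 15 and 30 min. A further group received hydrogen peroxide (H2O2), and the controls had no irradiation. All groups grew in YE, a rich medium based on yeast extract. The labels describe log-phase or stationary cells on a filter over YE agar and do not say which phase each library had, nor whether the plasma times count exposure or the time since it, nor the dose and time of H2O2. They name no phosphate starvation for any group. The 15 libraries held 14691752 to 23232575 counts, and each is named here by its group and the letter a, b or c in its column name. Plasma and H2O2 were each compared with the same 3 libraries without irradiation, for which no time is given, so plasma and the time since handling cannot be told apart. Nor can a difference between plasma and H2O2 be told apart from one of dose or time.

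Fission yeast answers phosphate starvation by switching on a small set of genes for taking up and releasing phosphate. pho1 encodes an acid phosphatase at the cell surface, pho84 a phosphate transporter of the plasma membrane, and tgp1 a transporter of glycerophosphodiesters, and all are activated by Pho7, a zinc-cluster transcription factor encoded by pho7. When phosphate is plentiful, each of these target genes is repressed by a long non-coding RNA transcribed from upstream through its promoter on the same strand: nc-pho1 (also called prt) for pho1, prt2 for pho84 and nc-tgp1 for tgp1. The RNA-binding protein Mmi1 marks such transcripts for destruction, and proteins that cleave and terminate them set how far they run into the promoter.

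To show where Pho7 could bind, the 250 bases before the annotated starts of its 3 known targets and of a related transporter gene, pho842, are printed from the RefSeq genome ASM294v3, 5′ to 3′ on the strand of the gene. Capitals mark matches to the Pho7 site as known from binding studies, a motif of 12 bases with free positions, searched on both strands. No matches overlapped each other.
pho1 (II:4447256-4447505, plus strand): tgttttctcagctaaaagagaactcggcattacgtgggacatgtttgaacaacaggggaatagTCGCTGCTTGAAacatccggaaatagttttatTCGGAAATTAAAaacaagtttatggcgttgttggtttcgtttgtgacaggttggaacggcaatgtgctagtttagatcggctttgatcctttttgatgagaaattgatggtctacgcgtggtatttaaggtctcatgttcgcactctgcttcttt
tgp1 (II:352412-352661, minus strand): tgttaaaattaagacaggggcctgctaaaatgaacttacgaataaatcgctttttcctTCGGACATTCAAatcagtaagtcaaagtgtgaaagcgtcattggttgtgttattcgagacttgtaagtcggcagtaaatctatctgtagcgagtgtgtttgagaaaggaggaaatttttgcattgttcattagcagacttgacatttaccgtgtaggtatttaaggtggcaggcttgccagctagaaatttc
pho842 (I:4362218-4362467, plus strand): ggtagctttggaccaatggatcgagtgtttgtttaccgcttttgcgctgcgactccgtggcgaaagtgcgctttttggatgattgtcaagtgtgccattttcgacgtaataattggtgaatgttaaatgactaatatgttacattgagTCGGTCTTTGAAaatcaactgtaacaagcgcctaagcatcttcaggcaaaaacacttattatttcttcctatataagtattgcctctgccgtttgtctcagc
pho84 (II:4443851-4444100, plus strand): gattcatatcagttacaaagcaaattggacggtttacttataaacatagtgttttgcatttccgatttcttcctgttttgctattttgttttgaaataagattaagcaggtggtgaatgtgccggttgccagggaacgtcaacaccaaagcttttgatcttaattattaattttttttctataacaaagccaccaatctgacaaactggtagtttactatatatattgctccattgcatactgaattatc
In these windows pho1 held 2 matches, TCGCTGCTTGAA at bases -187 to -176 and TCGGAAATTAAA at -155 to -144 counted from its start. The window of tgp1 held 1, TCGGACATTCAA at -192 to -181, and that of pho842 held 1, TCGGTCTTTGAA at -102 to -91. The windows of pho84 and pho7 held none. Nor did those of the non-coding genes nc-pho1, prt2 and nc-tgp1, of pho841, a relative of pho842, or of pqr1, both described below. Over all protein-coding genes, 99 of 5112 such windows (1.94%) held a match. The Pho7 motif came from earlier binding studies, which may have included these same promoters, so the matches are no independent test of binding. The motif TNAAAC, the DNA spelling of the RNA motif that Mmi1 recognises, was counted on the transcript strand of the non-coding genes. It occurred 6 times in nc-pho1 (2.34 per kb), 11 times in prt2 (3.21 per kb) and 6 times in nc-tgp1 (3.16 per kb), against a median of 1.77 per kb over 4252 annotated long non-coding genes of at least 500 bases. Of those genes 64.8% had a lower density than nc-pho1, 81.4% than prt2 and 80.6% than nc-tgp1. The motifs were counted over the whole annotated length, of which other genes share 55.2% in nc-pho1, 54.5% in prt2 and 14.8% in nc-tgp1.

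The non-coding genes also determine what could be counted. pho1 (chromosome II, 4447506 to 4449053, plus strand) shares 1413 of its 1548 bases (91.3%) with nc-pho1 (SPNCRNA.1712, 4446359 to 4448918). pho84 (chromosome II, 4444101 to 4446200, plus strand) shares 1870 of its 2100 bases (89.1%) with prt2 (SPNCRNA.9001, 4442542 to 4445970). Both pairs lie on the same strand and side by side, with pho84 ending just before nc-pho1 begins. The unshared 135 bases of pho1 and 230 bases of pho84 all lie after the coding part, in the 3′ untranslated region of the RefSeq models. Read pairs were counted with no strand option and with no option to count a pair under several genes, so a pair lying wholly in a shared stretch was counted for neither gene by the counter's default. The values of pho1 and pho84 therefore rest mainly on their 3′ ends. tgp1 (chromosome II, 350310 to 352411, minus strand) shares 77 bases at its start with nc-tgp1 (SPNCRNA.1698, 352335 to 354234) and 67 at its end with SPBC1271.10c on the other strand, which leaves 1958 of 2102 bases unshared. pho7 (chromosome II, 1345112 to 1347969, minus strand) overlaps no annotated gene. Coordinates are those of the deposited tables.

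**Figure D1:**
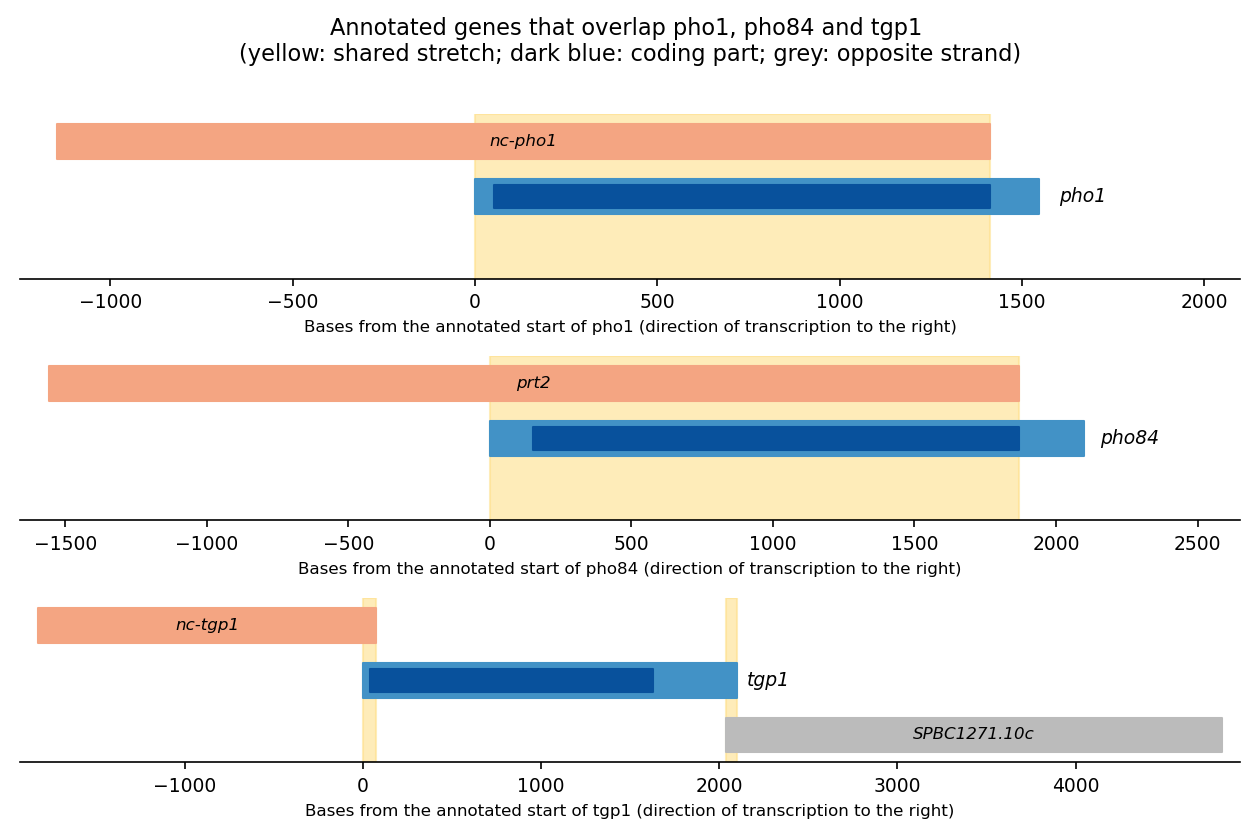
Annotated positions of pho1, pho84 and tgp1 (blue, coding part dark) with the non-coding genes on the same strand (orange) and a gene on the other strand (grey), in bases from the start of each coding gene along its direction of transcription. Yellow marks the shared stretches, which cover 91.3% of pho1, 89.1% of pho84 and 6.85% of tgp1.

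pho84 was lower in every treatment and had the largest decrease among the 4 genes. The transporter gene stood at 28.9, 17.3 and 25.3 CPM (counts scaled to 1e+06 per library, with TMM library sizes) in libraries a, b and c without irradiation, at 6.54, 4.48 and 5.95 CPM at plasma 10 min, at 8.36, 5.72 and 6.14 CPM at 15 min and at 8.62, 5.41 and 5.46 CPM at 30 min. The 3 H2O2 libraries held 4.50, 5.17 and 4.04 CPM. Every treated library lay below the lowest control, library b, which itself lay well under the other two. pho84 averaged 5.66 ± 1.06 CPM at 10 min, against 23.8 ± 5.91 CPM without irradiation (SD, n = 3 each), a log2 fold change of -2.07 ± 0.22 (SE; adjusted p = 2.60e-06, edgeR's quasi-likelihood test with Benjamini-Hochberg adjustment, as for all adjusted p below). The change was -1.84 ± 0.22 at 15 min (adjusted p = 4.86e-06), -1.88 ± 0.22 at 30 min (2.74e-06) and -2.38 ± 0.23 with H2O2 (4.04e-07), where the mean of 4.57 ± 0.569 CPM was 5.21-fold lower than without irradiation. Ordered by log2 fold change from the lowest, pho84 was number 5 of 5214 genes tested at 10 min, 28 at 15 min, 20 at 30 min and 4 with H2O2. With any 1 library of either group left out, the change stayed between -2.26 and -1.67 over the plasma times and between -2.56 and -2.21 with H2O2, and the call held in each such fit.

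No pair of plasma times passed the test for pho84: the log2 difference was 0.23 (95% interval -0.27 to 0.74) for 15 against 10 min, 0.19 (-0.32 to 0.70) for 30 against 10 min and -0.04 (-0.55 to 0.47) for 30 against 15 min. The plasma and H2O2 changes did not pass a test of their difference either, with 0.31 (-0.21 to 0.84) at 10 min, 0.54 (0.03 to 1.06, adjusted p = 0.123) at 15 min and 0.50 (-0.02 to 1.03) at 30 min. At 15 and 30 min all 3 plasma libraries were above all 3 H2O2 libraries. At 15 min the difference passed with the library letter as a replicate block (adjusted p = 0.0435) and with the 2 groups fitted alone (0.0497).

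prt2, the non-coding gene upstream of pho84, changed far less. Its means were 43.8 ± 1.58 CPM without irradiation, 35.3 ± 1.02 CPM at 10 min, 34.01 ± 0.121 CPM at 15 min and 48.96 ± 1.33 CPM at 30 min (SD, n = 3 each), and 41.0 ± 1.52 CPM with H2O2. The log2 fold change against no irradiation was -0.31 ± 0.05 at 10 min (adjusted p = 1.16e-04), -0.37 ± 0.05 at 15 min (1.57e-05) and 0.16 ± 0.05 at 30 min (0.0101), and with H2O2 prt2 did not pass (-0.10 ± 0.05, 0.107). prt2 was thus lower at the early plasma times and higher at 30 min, while pho84 was lower throughout. Between 15 and 30 min, prt2 differed by 0.53 ± 0.05 (adjusted p = 3.17e-06). Of the reads counted for either gene, pho84 took 13.7 ± 2.11% at 10 min, 16.5 ± 2.80% at 15 min, 11.6 ± 2.57% at 30 min and 10.0 ± 1.19% with H2O2, against 34.9 ± 6.54% without irradiation (SD, n = 3 each). This share does not depend on library scaling, and no treated library (highest 19.7%) reached the lowest control (27.5%).

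pho1 was lower with plasma at all 3 times and did not pass the test with H2O2. The acid phosphatase gene had few counts, 6 to 62 in a library. It stood at 1.88, 2.04 and 2.45 CPM in libraries a, b and c without irradiation, at 1.24, 0.885 and 0.992 CPM at 10 min, at 1.18, 1.03 and 0.644 CPM at 15 min and at 0.773, 0.331 and 1.08 CPM at 30 min. With H2O2 it stood at 2.391, 2.997 and 1.973 CPM. All 9 plasma libraries were below all 3 controls, and the H2O2 libraries overlapped the controls. The log2 fold change was -1.01 ± 0.29 at 10 min (adjusted p = 0.0130), -1.18 ± 0.30 at 15 min (0.00432) and -1.54 ± 0.32 at 30 min (7.75e-04), and 0.22 ± 0.26 with H2O2 (95% interval -0.33 to 0.77, adjusted p = 0.498). Means at the 3 plasma times, 1.04, 0.953 and 0.728 CPM, overlapped in their libraries and did not pass (adjusted p = 0.256 for 30 against 10 min). Each plasma call against no irradiation held with any 1 library left out. Without library b of plasma 30 min, which held 6 counts, the change at 30 min was -1.18.

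The plasma and H2O2 responses of pho1 differed by its own counts. Set against H2O2, which stood at 2.45 ± 0.515 CPM, pho1 was lower at 10 min by -1.23 ± 0.29 on the log2 scale (1.04 ± 0.182 CPM, adjusted p = 0.00403). The difference was -1.40 ± 0.30 at 15 min (adjusted p = 0.00292) and -1.76 ± 0.32 at 30 min (6.52e-04). In each of these comparisons the 3 plasma libraries were below the 3 H2O2 libraries. Since plasma and H2O2 share their controls, this test equals that of the difference of the changes.

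nc-pho1 was lower in none of the 4 comparisons. It averaged 8.60 ± 1.02 CPM without irradiation, 8.94 ± 0.424 CPM at 10 min, 11.2 ± 0.9995 CPM at 15 min and 10.6 ± 0.892 CPM at 30 min (SD, n = 3 each), and 10.96 ± 1.53 CPM with H2O2. It was higher at 15 min (log2 fold change 0.37 ± 0.13, adjusted p = 0.0215) and with H2O2 (0.35 ± 0.13, 0.0295), and did not pass at 10 min (0.05 ± 0.13) or at 30 min (0.30 ± 0.13, 0.0550). The share of pho1 in the reads of both genes was 10.4 ± 1.18% at 10 min, 7.87 ± 2.36% at 15 min, 6.26 ± 2.76% at 30 min and 18.4 ± 4.07% with H2O2, against 19.98 ± 4.07% without irradiation (SD, n = 3 each). Summed over the counts of pho1 and nc-pho1, an alternative added after the data were seen in which most counts are those of nc-pho1 and the shared stretch is still largely uncounted, the log2 fold change was -0.11 at 10 min, 0.17 at 15 min and 0.08 at 30 min (adjusted p = 0.485, 0.214 and 0.588), and 0.32 with H2O2 (0.0249). Against H2O2 the summed pho1 value passed at 10 min (-0.43, adjusted p = 0.00891) and not at 15 min (-0.15, 0.386) or 30 min (-0.24, 0.116). For pho84 with prt2 the summed change stayed lower in all 4 comparisons, at -0.72 at 10 min, -0.73 at 15 min, -0.29 at 30 min and -0.57 with H2O2 (adjusted p = 2.02e-07, 9.84e-08, 6.49e-04 and 1.11e-06). Whether fewer coding transcripts or a shift of transcript ends lies behind the values of pho1 and pho84 was not tested.

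**Figure D2:**
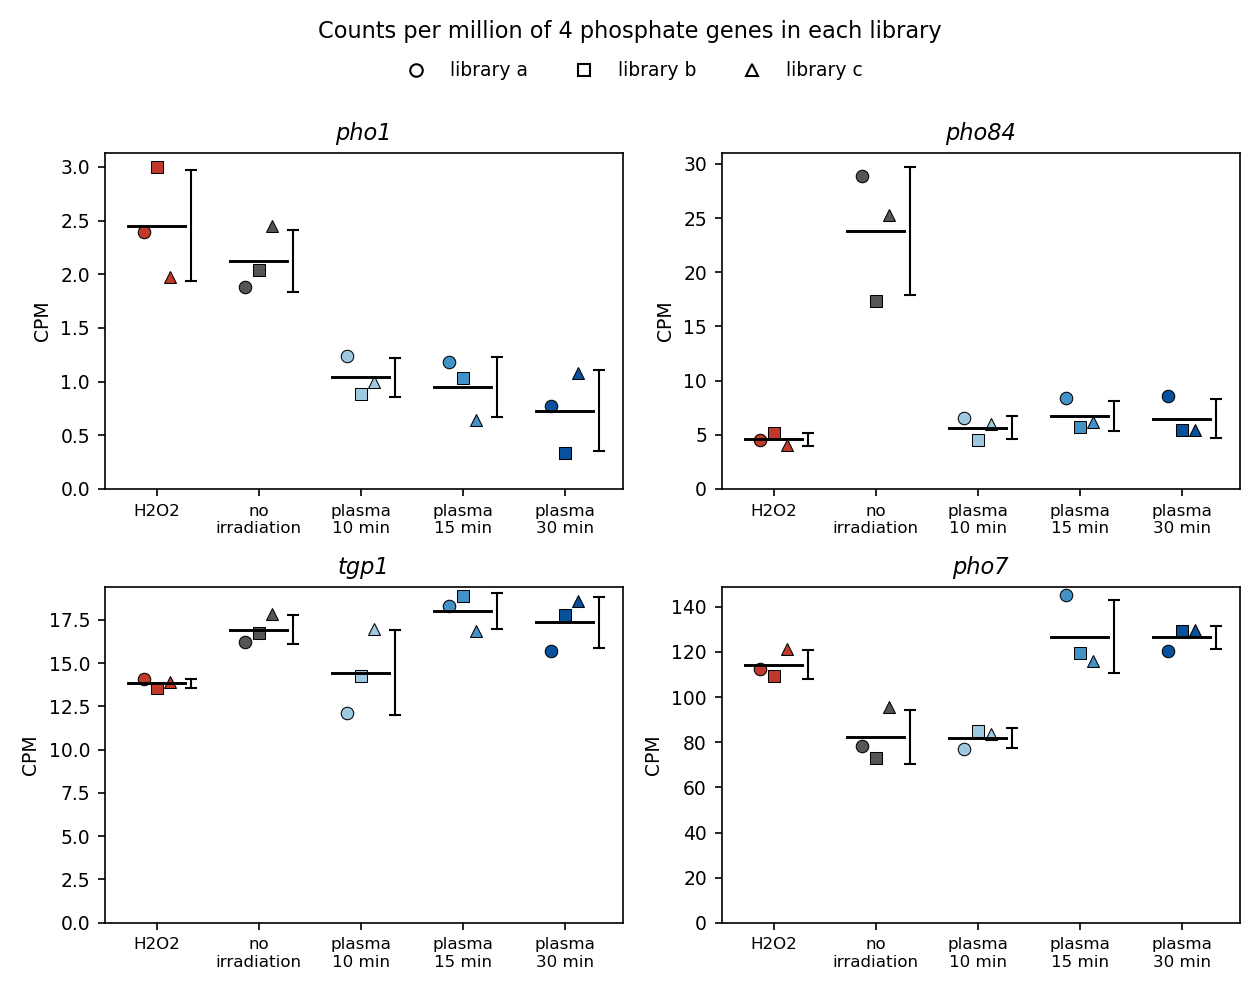
CPM of pho1, pho84, tgp1 and pho7 in each library, with a point per library (circle a, square b, triangle c), the group mean as a line and ± SD as a bar (n = 3). pho84 is low in all treated groups, pho1 is low in the 3 plasma groups, and pho7 is raised at 15 and 30 min and with H2O2.

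tgp1 changed little. The glycerophosphodiester transporter gene stood at 16.2, 16.7 and 17.8 CPM in libraries a, b and c without irradiation, at 12.09, 14.27 and 16.96 CPM at 10 min, at 18.3, 18.9 and 16.8 CPM at 15 min and at 15.7, 17.8 and 18.6 CPM at 30 min. These groups overlapped one another. No plasma time passed against no irradiation, with log2 fold changes of -0.23 ± 0.11 at 10 min (adjusted p = 0.118), 0.09 ± 0.11 at 15 min (0.517) and 0.04 ± 0.11 at 30 min (0.789). Without library c of plasma 10 min, the highest of that group, the change at 10 min was -0.37 ± 0.10 and passed (adjusted p = 0.0129). The H2O2 libraries held 14.1, 13.5 and 13.9 CPM, all below the controls, and tgp1 was lower by -0.29 ± 0.11 (adjusted p = 0.0375). That call was lost in 5 of the 6 fits that left out 1 library, with adjusted p from 0.0648 to 0.0999 in those fits. Against H2O2, tgp1 was higher at 15 min by 0.38 ± 0.11 (18 ± 1.06 CPM against 13.8 ± 0.27 CPM, adjusted p = 0.0217) and at 30 min by 0.33 ± 0.11 (0.0348). Both calls were also lost in 5 of 6 such fits, and at 10 min the difference was 0.06 (95% interval -0.17 to 0.30). Summed with nc-tgp1, which is lower in all 4 comparisons, tgp1 passed as lower at the plasma times (-0.26, -0.22 and -0.29, adjusted p = 0.00343, 0.00744 and 8.37e-04).

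nc-tgp1, unlike its coding neighbour, was lower in all 4 comparisons. It averaged 36.5 ± 3.56 CPM without irradiation, 30.3 ± 1.75 CPM at 10 min, 28 ± 1.48 CPM at 15 min and 26.5 ± 2.54 CPM at 30 min (SD, n = 3 each), and 28.2 ± 1.84 CPM with H2O2. The log2 fold changes were -0.27 ± 0.09 (adjusted p = 0.0209), -0.38 ± 0.09 (0.00166) and -0.47 ± 0.09 (2.77e-04) at the 3 times and -0.37 ± 0.09 with H2O2 (0.00183). No treated library reached the lowest control, 33.8 CPM. tgp1 took 39.1 ± 2.47% of the reads of both genes at 15 min and 39.6 ± 4.16% at 30 min, against 31.7 ± 2.69% without irradiation (SD, n = 3 each). The share was 32.1 ± 3.53% at 10 min and 33.0 ± 1.82% with H2O2, and both of these groups overlapped the controls. SPBC1271.10c, which overlaps the end of tgp1, ranged from 123 to 165 CPM over the libraries and was higher at 15 min (0.19 ± 0.06, adjusted p = 0.0143) and with H2O2 (0.19 ± 0.06, 0.0127).

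**Figure D3:**
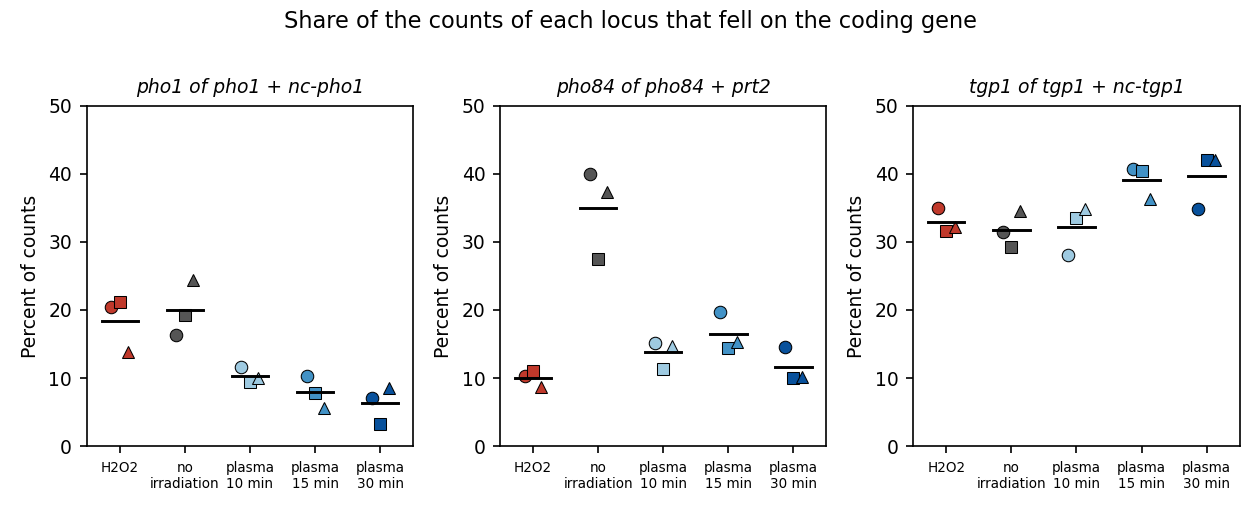
Percent of the counts of each pair of overlapping genes that fell on the coding gene, by library (circle a, square b, triangle c) with group means as lines, for pho1 with nc-pho1, pho84 with prt2 and tgp1 with nc-tgp1. The share of pho84 averages 10.0 to 16.5% in the treated groups and 34.9% without irradiation, while that of tgp1 lies between 28.1 and 42.1% in all libraries.

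pho7 was higher at plasma 15 and 30 min and with H2O2, and not at plasma 10 min. The gene of the activator stood at 78.4, 72.9 and 95.6 CPM in libraries a, b and c without irradiation, at 76.9, 85.0 and 83.5 CPM at 10 min, at 145, 120 and 116 CPM at 15 min and at 121, 129 and 130 CPM at 30 min. The H2O2 libraries held 112, 109 and 121 CPM. All libraries at 15 and 30 min and with H2O2 were above all libraries without irradiation and at 10 min. The log2 fold change was -0.01 ± 0.10 at 10 min (95% interval -0.21 to 0.20), 0.62 ± 0.09 at 15 min (adjusted p = 5.61e-05), 0.62 ± 0.09 at 30 min (4.20e-05) and 0.48 ± 0.09 with H2O2 (5.86e-04). The step from 10 to 15 min was 0.63 ± 0.09 (adjusted p = 3.74e-04), and 30 against 15 min did not pass (95% interval of the difference -0.20 to 0.20). At 10 min pho7 was lower than with H2O2 by -0.48 ± 0.09 (81.8 ± 4.35 CPM against 114 ± 6.32 CPM, adjusted p = 0.00112). At 15 and 30 min it did not pass against H2O2, at 0.15 (95% interval -0.05 to 0.35) and 0.15 (-0.05 to 0.35).

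The 4 genes thus took different courses, and their counts have to be read against a background in which many genes changed. At 10 min pho1 and pho84 passed, both lower, where 38.8% of the 5214 genes tested passed in either direction. At 15 min 51.9% of all genes passed and at 30 min 60.0%, and in both pho1 and pho84 were lower and pho7 higher. With H2O2, where 54.1% of all genes passed, pho84 and tgp1 were lower and pho7 higher. Between plasma times pho7 alone differed, for 15 against 10 min and for 30 against 10 min, where 13.6 and 38.8% of all genes did, and none of the 4 differed for 30 against 15 min (28.7%). By DESeq2 tgp1 also passed for 15 against 10 min (adjusted p = 0.0433) and 30 against 10 min (0.0475), and by total counts for 15 against 10 min (0.0452). Between plasma and H2O2, pho1 and pho7 differed at 10 min, and pho1 and tgp1 at 15 and at 30 min, against 32.3, 23.1 and 32.0% of all genes. Over the 15 libraries the correlation of log2 CPM was 0.32 between pho1 and pho84, -0.35 between pho1 and tgp1, 0.31 between pho84 and tgp1, and -0.30, -0.46 and 0.36 between pho7 and pho1, pho84 and tgp1. These are descriptions over libraries that share groups, with no test.

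**Figure D4:**
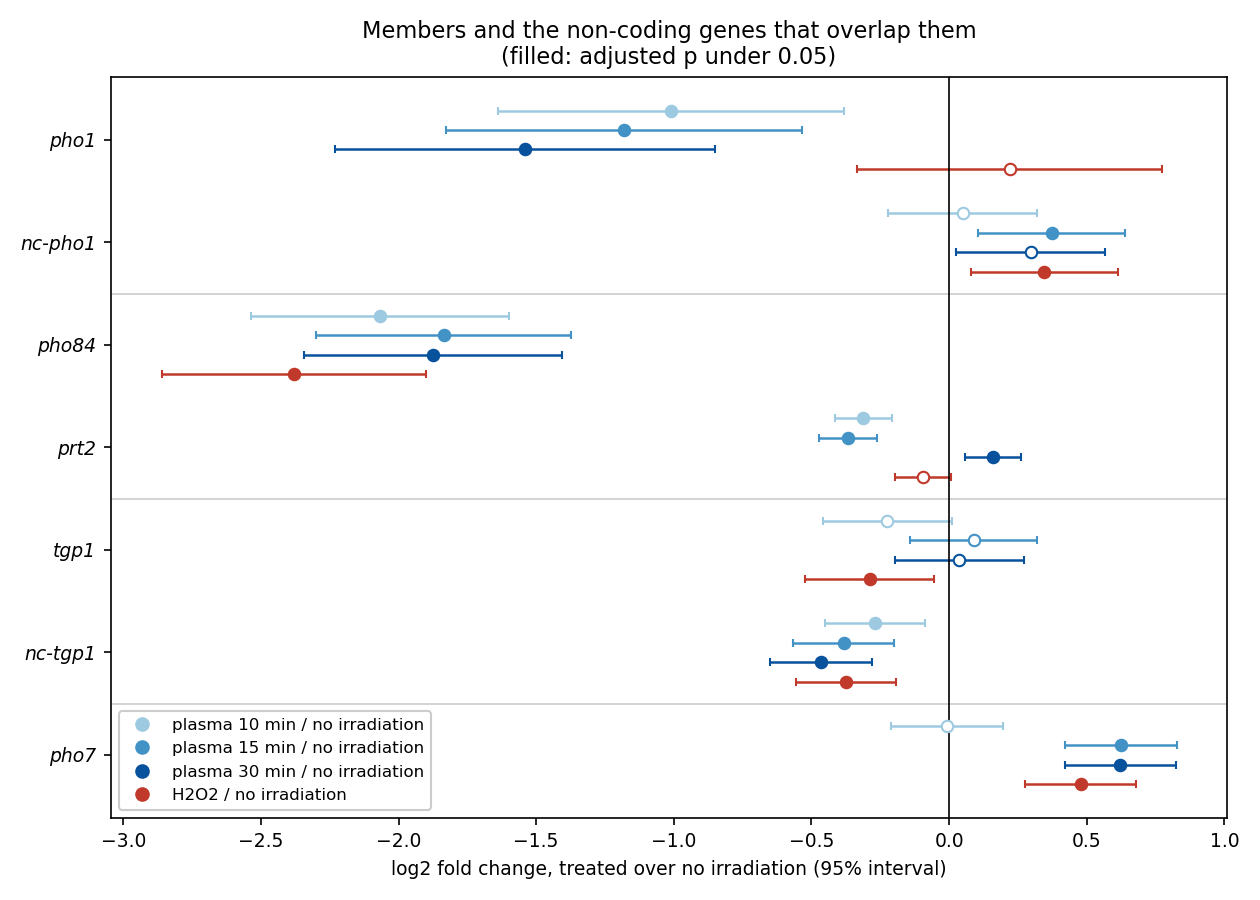
log2 fold changes (treated over no irradiation) with 95% intervals for the 4 genes and the non-coding genes that overlap pho1, pho84 and tgp1, for plasma 10, 15 and 30 min and H2O2. Filled points passed at adjusted p under 0.05. pho84 lies between -2.38 and -1.84 and prt2 between -0.37 and 0.16.

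Compared per length, the order of the genes depended on which length was used. Without irradiation, CPM per kb of the whole gene was 28.8 ± 4.15 for pho7, 11.3 ± 2.82 for pho84, 8.05 ± 0.398 for tgp1 and 1.37 ± 0.190 for pho1 (SD, n = 3 each). Per kb of the unshared stretch it was 104 ± 25.7 for pho84, 28.8 ± 4.15 for pho7, 15.7 ± 2.17 for pho1 and 8.64 ± 0.427 for tgp1. On that length pho84 was the highest of the 4 without irradiation, while at 30 min pho7, at 44.3 ± 1.78, stood above pho84, at 28.3 ± 7.99. Pairs that reach from the unshared into the shared stretch can still count for the coding gene. Division by the unshared length can therefore overstate pho1 and pho84 by an unknown amount, and which order holds was not tested.

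Over the 15 libraries, the genes whose log2 CPM followed pho84 most closely (overlapping genes left out) were dea2, an adenine deaminase gene, with Pearson's r = 0.972, and the ribosome biogenesis genes mrd1 (0.969) and rrp1402 (0.969). For pho7 they were str1, a siderophore transporter gene (0.956), ppr5, which encodes a mitochondrial RNA-binding protein (0.934), and pat1, which encodes a kinase that holds back meiosis (0.918). pho1 was most like mug89 (0.911), bmc1 (0.889) and SPCC11E10.09c (0.865), and tgp1 most like ppn1 (0.813), the histone H3 gene hht2 (0.802) and the transcription factor gene sfp1 (0.783). Of the genes most like pho1, SPCC11E10.09c shares 65.0% of its length with other genes, bmc1 30.3% and mug89 0%. By Spearman's correlation over the same libraries, hht2 (0.618) ranked only 38.5 for tgp1 and sfp1 (0.675) 19. For pho7, pat1 (0.904) ranked 19, and for pho84, rrp1402 (0.839) ranked 18. The other genes named here ranked 6 or nearer. The libraries share groups and depth, so these values describe likeness only.

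Among other phosphate genes, a list of 30 symbols covered transport and storage, inositol pyrophosphates, kinases and SPX proteins, transcription termination, and RNA elimination. Of the 29 matched, 27 were tested. At 10 min 3 were higher and 11 lower, and at 15 min 3 were higher and 9 lower. The 30 min time had 6 higher and 9 lower, and H2O2 had 5 higher and 11 lower. Among all 5214 genes tested, the 10 min comparison had 21.9% higher and 17% lower. The 15 min comparison had 27.1% higher and 24.8% lower, the 30 min comparison 31.0% higher and 29.0% lower, and the H2O2 comparison 28.5% higher and 25.6% lower. Their median log2 fold change was -0.13, -0.12 and -0.04 at the 3 plasma times and -0.07 with H2O2, where all genes had medians within 0.01 of 0. Of the 26 tested list genes with a single annotated interval, 12 overlap another gene and 1, pch1, over at least 50% of its length. The matched genes not tested, arg82 and swd22, share 89.9% and 100% of their length with other genes.

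The transporter gene pho842 (SPAC23D3.12), with a Pho7 match before its start, was lower at all 3 plasma times and did not pass with H2O2. It averaged 34.6 ± 3.47 CPM at 10 min, 50.1 ± 11.2 CPM at 15 min, 46.4 ± 1.16 CPM at 30 min and 78.7 ± 2.49 CPM with H2O2, against 76.7 ± 10.3 CPM without irradiation (SD, n = 3 each). The log2 fold change was -1.14 ± 0.12 at 10 min (adjusted p = 3.32e-06), -0.62 ± 0.12 at 15 min (5.54e-04) and -0.72 ± 0.12 at 30 min (1.18e-04), and 0.04 with H2O2 (95% interval -0.21 to 0.29). Against H2O2 it was lower at each time, by -1.18 ± 0.12 at 10 min (adjusted p = 2.88e-06), -0.66 ± 0.12 at 15 min (9.87e-04) and -0.76 ± 0.12 at 30 min (2.69e-04). Its relatives pho841 (SPBC1683.01) and pho843 (SPCC2H8.02), added after the annotation was read, were higher in all 4 comparisons, pho841 by 0.46 ± 0.07 at 10 min (adjusted p = 6.29e-05) and pho843 by 0.16 ± 0.05 (0.0102).

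pqr1, which encodes an SPX-domain ubiquitin ligase that restrains phosphate uptake, was higher in every treatment. It averaged 394 ± 23.2 CPM at 10 min, 406 ± 23.2 CPM at 15 min, 401 ± 8.64 CPM at 30 min and 333 ± 7.84 CPM with H2O2, against 213 ± 12.7 CPM without irradiation (SD, n = 3 each), with adjusted p of 3.45e-08, 1.19e-08, 9.70e-09 and 5.02e-07. pho8, the vacuolar alkaline phosphatase gene, was also higher throughout, by 0.41 ± 0.06, 0.56 ± 0.06 and 1.04 ± 0.06 at the plasma times and 0.62 ± 0.06 with H2O2. pho4, an acid phosphatase gene repressed by thiamine, was lower throughout, by -0.42 ± 0.08, -0.44 ± 0.08 and -0.58 ± 0.08 and by -0.21 ± 0.08 with H2O2 (adjusted p = 0.0370). The polyphosphate polymerase gene vtc4 was lower with H2O2 (-0.43 ± 0.08, adjusted p = 2.24e-04) and at 10 min (-0.28 ± 0.08, 0.00857). At 15 min it did not pass (-0.17 ± 0.08) and at 30 min it was just past the threshold (-0.18 ± 0.08, 0.0492). nrf1, its partner in the polymerase complex, was lower with H2O2 (-0.24 ± 0.06, adjusted p = 0.00423) and passed at no plasma time. vtc2, added with pho841 and pho843, averaged 328 ± 20.4 CPM without irradiation. Its means were 258 ± 7.93, 243 ± 12 and 259 ± 11.6 CPM at the plasma times and 240 ± 9.5 CPM with H2O2 (SD, n = 3 each). At 10 min vtc2 was lower by -0.35 ± 0.06 (adjusted p = 2.61e-04).

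Against no irradiation, changes in genes of inositol pyrophosphate turnover lay between -0.31 and 0.33 on the log2 scale. asp1, the kinase that makes these signals, and kcs1 passed in no comparison with the controls, and asp1 lay between -0.15 and 0.02. siw14, a phosphatase of the same molecules, was lower at 10 min (-0.20 ± 0.06, adjusted p = 0.0198) and higher at 30 min (0.33 ± 0.06, 3.34e-04) and with H2O2 (0.16 ± 0.06, 0.0415). aps1, a hydrolase of the same molecules, was higher at 30 min (0.25 ± 0.09, adjusted p = 0.0224), and ipk1 was lower at 10 min (-0.31 ± 0.08, 0.00914) and with H2O2 (-0.25 ± 0.08, 0.0226).

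Among termination factors, ssu72, which encodes a phosphatase of the cleavage and polyadenylation complex, was lower in all 4 comparisons, by -0.22 ± 0.05, -0.40 ± 0.05 and -0.37 ± 0.05 at the plasma times and -0.21 ± 0.05 with H2O2 (adjusted p = 0.00336, 1.42e-05, 2.14e-05 and 0.00390). pcf11, a subunit of a cleavage factor, was higher in all 4, by 0.18 ± 0.05, 0.40 ± 0.05, 0.46 ± 0.05 and 0.13 ± 0.05 (adjusted p = 0.00772, 5.77e-06, 7.45e-07 and 0.0297). seb1, which binds nascent RNA, was lower at the 3 plasma times (-0.27, -0.26 and -0.23, SE 0.06 each) and did not pass with H2O2 (-0.07 ± 0.06). Of the 5 RNA elimination genes tested, 2 were lower at 10 min and 3 at 15 min, at 30 min and with H2O2. Of all genes tested, 17%, 24.8%, 29.0% and 25.6% were lower in these comparisons. Among the RNA elimination genes 1 was higher, with H2O2 only, where 28.5% of all genes were higher. rrp6, the nuclear exosome nuclease gene of this group, was lower in all 4 comparisons, by -0.43 ± 0.06, -0.55 ± 0.06, -0.69 ± 0.06 and -0.56 ± 0.06 (adjusted p = 6.84e-05, 4.27e-06, 2.51e-07 and 2.77e-06). mmi1 was lower at 10 min (-0.29 ± 0.05, adjusted p = 2.26e-04), at 15 min (-0.33 ± 0.05, 5.29e-05) and with H2O2 (-0.20 ± 0.05, 0.00310) and did not pass at 30 min (-0.09 ± 0.05). Of the kinases, csk1, whose loss is known to raise pho1, was lower at 10 min (-0.17 ± 0.06, adjusted p = 0.0368), at 30 min (-0.32 ± 0.06, 4.38e-04) and with H2O2 (-0.31 ± 0.06, 6.27e-04), and stood at 0.00 ± 0.06 at 15 min. Among the 4 kinase and SPX genes tested, pqr1 included, 1 was higher at 10 min, at 15 min and with H2O2, and 2 at 30 min. The share of all genes tested that were higher was 21.9% at 10 min, 27.1% at 15 min, 28.5% with H2O2 and 31.0% at 30 min.

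**Figure D5:**
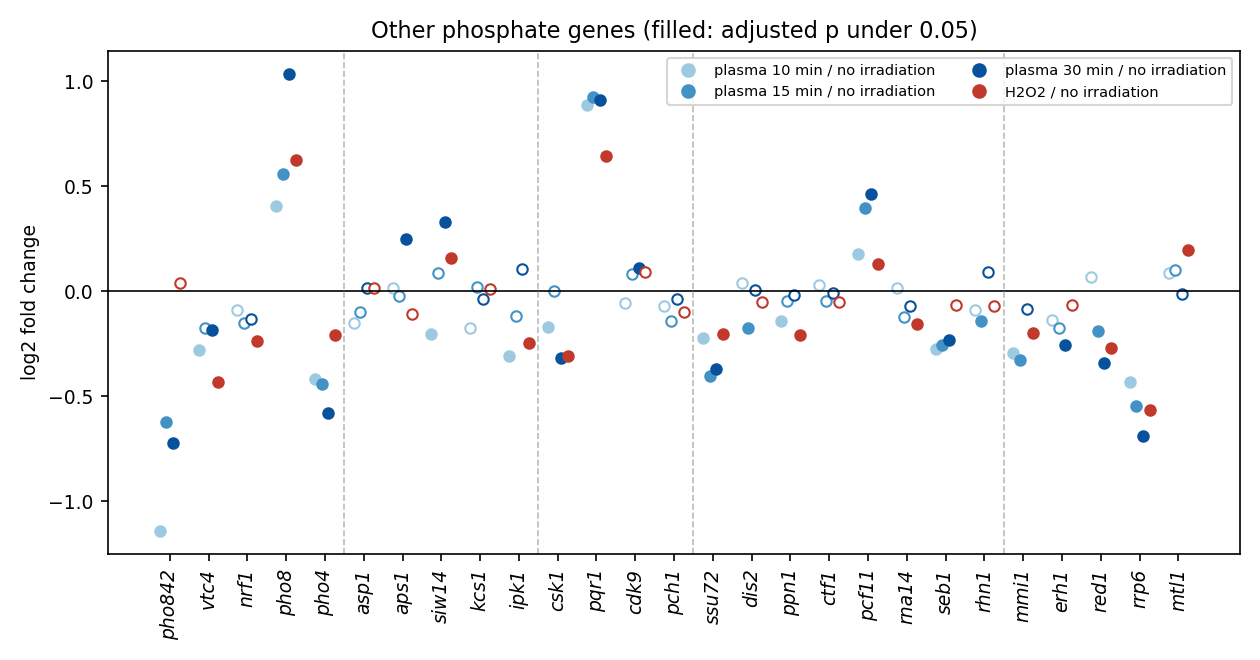
log2 fold changes against no irradiation of the 27 other phosphate genes tested, ordered by role (dashed lines divide transport and storage, inositol pyrophosphates, kinases and SPX proteins, termination, RNA elimination). Filled points passed at adjusted p under 0.05. pho842 is at -1.14, -0.62 and -0.72 with plasma and at 0.04 with H2O2, and pqr1 and pho8 are higher in all 4 comparisons.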

How the data were processed

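The deposited files hold raw counts per gene that the authors made with featureCounts 2.0.1, per the file headers, on read pairs, by transcript and gene identifier, with no strand or multiple-overlap option, although the labels' protocols give a stranded kit. HISAT2 2.2.1 and SAMtools 1.13 are named in the submitters' processing notes, which give the build as R64, a budding yeast name. Of 6862 identifiers matched to RefSeq ASM294v3, 6826 shared a start or end with it. Each library's column was matched to its group, and its letter is not a replicate number of the labels. The H2O2 table held no controls. Of 6998 genes, 965 were at 0 in all libraries and 5214 passed edgeR's filterByExpr (minimum count 10). All 10 comparisons came from 1 quasi-likelihood fit over 15 libraries (edgeR 4.0.16, limma 3.58.1, R 4.3.3, TMM scaling, threshold 0.05). The fit was tried on simulated counts with known changes, for 30 min against no irradiation alone. The changed genes there had higher mean counts than pho1 and changed more than tgp1 or pho7 did. The common biological coefficient of variation was 8.8%. DESeq2 1.42.0, other scalings, other filters, the groups alone, the library letter as a block and leaving out each library were alternatives. The members and gene lists were chosen with earlier results of these data known. Named genes were the members, their overlapping genes, the list genes and the 3 genes most correlated with each member. Of 30 list symbols 29 matched, and pho841, pho843 and vtc2 were added later and not counted.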

Additional observations from a re-analysis of the deposited data

Results flagged for a closer look

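In 6 cases a gene's change with plasma differed from its change with H2O2 by a test of that difference (edgeR's quasi-likelihood test, Benjamini-Hochberg adjusted over all genes). Of all 5214 genes tested, 32.3% passed the same test at 10 min, 23.1% at 15 min and 32.0% at 30 min. How many of all genes had libraries that did not overlap was not counted. For pho1 the log2 difference, plasma minus H2O2, was -1.23 ± 0.29 at 10 min (adjusted p = 0.00403), -1.40 ± 0.30 at 15 min (0.00292) and -1.76 ± 0.32 at 30 min (6.52e-04), and in each case all 3 plasma libraries lay below all 3 H2O2 libraries. Summed with nc-pho1, the call held at 10 min (-0.43) and was lost at 15 min (-0.15) and 30 min (-0.24). For pho7 it was -0.48 ± 0.09 at 10 min (adjusted p = 0.00112), with the 3 plasma libraries below the 3 H2O2 libraries. For tgp1 it was 0.38 ± 0.11 at 15 min (adjusted p = 0.0217) and 0.33 ± 0.11 at 30 min (0.0348), with the 3 plasma libraries above, and both calls were lost in 5 of 6 fits that left out 1 library.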

How the results depend on the processing

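Over 40 results on the 4 genes, no filter and a filter of at least 1 CPM in 3 libraries changed no call or direction. RLE size factors turned pho7 for 30 against 15 min to 0.0091, as did DESeq2 (0.0092). Total counts turned tgp1 at 30 min against no irradiation to -0.036, brought tgp1 for 15 against 10 min past the threshold (0.36) and lost tgp1 for 30 min against H2O2 (0.28). DESeq2 brought tgp1 past it for 15 against 10 min (0.32) and 30 against 10 min (0.28). With the groups compared alone, pho84 for 15 min against H2O2 (0.55) and pho7 for 30 min against H2O2 (0.16) passed. With the library letter as a replicate block, pho84 for 15 min against H2O2 passed (0.53) and no other call changed. The letters were not taken to pair the libraries: over 30 same-letter pairs the correlation of deviations ran from -0.11 to 0.31 (median 0.12, 17 over 0.1), against a median of -0.07 for other letters, and 11 of 15 libraries correlated best with their own letter, a hint from the data and not from the design. Summing with the overlapping non-coding gene, chosen after seeing the data, gave for pho1 -0.11, 0.17 and 0.077 at the 3 plasma times and 0.32 with H2O2 against no irradiation, 0.28 and 0.18 for 15 and 30 against 10 min, and -0.15 and -0.24 for 15 and 30 min against H2O2. The plasma calls against no irradiation and those at 15 and 30 min against H2O2 were lost, and H2O2 passed. For tgp1 it gave -0.26, -0.22 and -0.29 at the plasma times, -0.032 for 30 against 10 min, and 0.13 and 0.060 for 15 and 30 min against H2O2. The 3 plasma times then passed and the calls against H2O2 were lost. For pho84 it gave -0.011 and 0.44 for 15 and 30 against 10 min, 0.45 for 30 against 15 min, and -0.15, -0.16 and 0.28 at the 3 times against H2O2, and 30 min then passed against 10 min, 15 min and H2O2. The cause of these moves was not tested, beyond that sums add the counts of the non-coding gene. By total counts, 153 genes were lower for 15 against 10 min (311 with TMM), 378 higher for 30 against 15 min (785), 398 lower for 15 min against H2O2 (687), 481 higher for 30 min against H2O2 (797), and 2 other phosphate genes were higher with H2O2 (5). With the groups alone, 546 genes were lower at 10 min (884) and 3 other phosphate genes higher with H2O2.

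Leaving out 1 library gave ranges of -0.37 to -0.11 for tgp1 and -0.093 to 0.11 for pho7 at 10 min, -0.013 to 0.10 for tgp1 at 30 min and -0.32 to -0.25 for tgp1 with H2O2. For 15 against 10 min they were -0.34 to 0.096 for pho1 and 0.20 to 0.46 for tgp1. For 30 against 10 min they were -0.063 to 0.31 for pho84 and 0.15 to 0.42 for tgp1. For 30 against 15 min they were -0.76 to 0.00093 for pho1, -0.30 to 0.13 for pho84, -0.10 to 0.015 for tgp1 and -0.056 to 0.11 for pho7. Against H2O2 tgp1 ran from -0.084 to 0.18 at 10 min, 0.34 to 0.43 at 15 min and 0.28 to 0.39 at 30 min. Gene counts ran from 254 to 408 higher and 189 to 240 lower for 15 against 10 min, 471 to 577 lower for 30 against 15 min, and other phosphate genes higher from 3 to 5 at 10 min and 3 to 5 with H2O2. The depth of pho1, 6 to 62 counts per library, limits its precision.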
